A study of Mus musculus with 2 samples.

Results

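The ependymal cells described here were 322 of 19161 single-cell transcriptomes from the brains of adult mice, 212 of 10349 cells in the IL34LacZ/LacZ library and 110 of 8812 cells in the IL34LacZ/+ library. A cell was taken as ependymal when Tmem212, Ccdc153, Foxj1 and Dynlrb2 together gave at least 5 unique molecular identifiers (UMIs, each standing for 1 captured mRNA molecule), when the choroid plexus genes Kcnj13, Folr1, Prlr and Kcne2 together gave at most 3, and when Ptprc, the gene of the pan-leukocyte protein CD45, gave none. These genes were chosen from measured values in the same cells, so every level that sets ependymal cells against other cells below is a description and carries no test.

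Ependymal cells form the ciliated epithelium that lines the brain ventricles and the central canal. Each bears a tuft of motile cilia whose beating moves cerebrospinal fluid along the wall, and the choroid plexus epithelium, which secretes that fluid, is their direct neighbour. Multiciliated cells reach this state through a transcriptional cascade in which GEMC1 and Multicilin switch on MYB, p73, FOXJ1 and the RFX factors, which in turn activate the genes of basal bodies and axonemes.

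The study pooled cells that had been sorted from whole brain and captured them on the 10x Chromium 3′ platform, with 1 library from mice homozygous for a lacZ allele of Il34 (IL34LacZ/LacZ) and 1 from heterozygous mice (IL34LacZ/+). IL-34 is a cytokine ligand of the receptor CSF1R, on which macrophages of the brain depend, and both libraries carry at least 1 copy of the lacZ allele, so neither is wild type. The sort gates named in the labels were CD13+ and/or CD140a+ cells without O4 for mural cells and fibroblasts, CD31+ for endothelium, ACSA-2+ for astrocytes, and CD11b with F4/80 for border-associated macrophages and microglia. No gate names ependymal cells. The labels give neither the number, sex and exact age of the mice nor the proportions in which gates were pooled. Y-linked transcripts were present in both libraries, with Ddx3y at 80.3 CPM (its UMIs per 1000000 UMIs of the same cells) in IL34LacZ/LacZ ependymal cells and 89.6 CPM in IL34LacZ/+ ependymal cells. No genotype has a second library, so no p-value is given, and genotype, animal, sort and library preparation cannot be told apart.

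The libraries held 18858 barcodes with 95505407 UMIs (IL34LacZ/LacZ) and 17168 barcodes with 87394167 UMIs (IL34LacZ/+). They shared 103 barcodes; 1 of these barcodes belonged to an ependymal cell, and none was ependymal in both libraries. Il34 itself gave 448 UMIs, or 7.73 CPM, in all other cells of the IL34LacZ/LacZ library and 336 UMIs, or 6.62 CPM, in all other cells of the IL34LacZ/+ library. The sources used here do not say where the lacZ insertion lies relative to the 3′ tags, so this count checks neither label, and the genotype names below stand for the labels of the libraries.

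Levels are CPM of the UMIs summed over all cells of a class in 1 library, and ratios are IL34LacZ/LacZ over IL34LacZ/+ with a 95% interval that covers counting error only. Since 1 UMI is 1 molecule tagged at its 3′ end, these levels do not scale with transcript length. Ependymal cells are set against choroid plexus cells, with at least 5 UMIs of the 4 choroid genes, fewer than 5 of the ependymal genes and no Ptprc (384 IL34LacZ/LacZ and 790 IL34LacZ/+ cells), and macrophage-marked cells, with Ptprc and at least 5 UMIs of Csf1r, Cx3cr1, P2ry12, Mrc1 and Pf4 (3012 IL34LacZ/LacZ and 2394 IL34LacZ/+ cells). Shares of cells in the libraries and among ependymal cells with or without a gene are given with exact Clopper-Pearson 95% intervals. Ependymal cells made up 2.05% of the IL34LacZ/LacZ cells that passed the filter (1.78 to 2.34%) and 1.25% of the IL34LacZ/+ cells (1.03 to 1.5%). How the sorted fractions were pooled is not given, and its part in these shares was not tested. Their median depth was 8213 UMIs and 3363.5 genes in the IL34LacZ/LacZ library, against 7753.5 UMIs and 3182.5 genes in the IL34LacZ/+ library. After each cell was thinned to 2000 UMIs, which left 202 IL34LacZ/LacZ and 103 IL34LacZ/+ cells, the median number of genes was 1272 in IL34LacZ/LacZ and 1267 in IL34LacZ/+ cells. Mitochondrial transcripts took a median 6.45% of UMIs in IL34LacZ/LacZ ependymal cells and 7.26% in IL34LacZ/+ ependymal cells.

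Most ependymal cells lay far from the limit that chose them. The 4 marker genes together gave a median of 54 UMIs per cell (5 to 187) in the IL34LacZ/LacZ library and 41 UMIs (5 to 127) in the IL34LacZ/+ library, and 182 of 212 IL34LacZ/LacZ cells and 79 of 110 IL34LacZ/+ cells held at least 20. Just inside the limit, at 5 to 9 UMIs, were 6 IL34LacZ/LacZ and 10 IL34LacZ/+ cells, in which the axonemal dynein genes other than Dynlrb2 summed to 647 CPM (IL34LacZ/LacZ) and 1899 CPM (IL34LacZ/+). In cells with 40 UMIs or more the same genes summed to 3807 CPM (IL34LacZ/LacZ) and 3889 CPM (IL34LacZ/+). The 6 IL34LacZ/LacZ cells also carried 8309 CPM of 8 endothelial markers and 4528 CPM of 9 macrophage markers. Just outside it, at 3 or 4 UMIs, were 9 IL34LacZ/LacZ and 2 IL34LacZ/+ cells, and the 9 held 40493 CPM of oligodendrocyte markers and 305 CPM of those dyneins. At the choroid limit, 31 IL34LacZ/LacZ and 9 IL34LacZ/+ ependymal cells held 3 choroid UMIs, and 48 IL34LacZ/LacZ and 16 IL34LacZ/+ cells lay just outside with 4 to 6. Ptprc alone left out 19 IL34LacZ/LacZ and 9 IL34LacZ/+ cells.

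**Figure D1:**
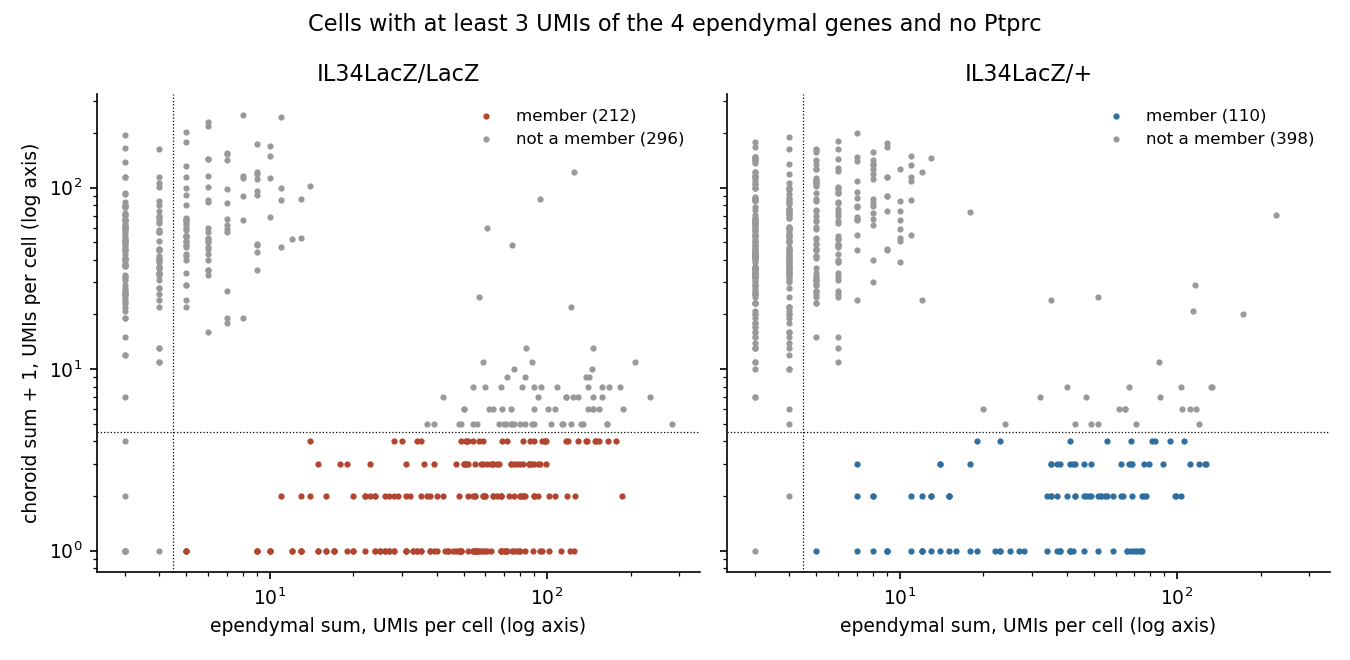
Each point is 1 cell with at least 3 UMIs of the 4 ependymal genes and no Ptprc, at its ependymal sum (x axis, UMIs, log) and its choroid sum plus 1 (y axis, UMIs, log), with IL34LacZ/LacZ in the left panel and IL34LacZ/+ in the right. Coloured points are the ependymal cells (members), 212 in IL34LacZ/LacZ and 110 in IL34LacZ/+; grey points at upper right include the 76 IL34LacZ/LacZ and 28 IL34LacZ/+ cells with an ependymal sum of 20 or more that the choroid limit left out.

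Tmem212, which encodes a transmembrane protein of unknown role, was the most abundant of the genes in the rule, at 2372 CPM in IL34LacZ/LacZ ependymal cells and 2345 CPM in IL34LacZ/+ ependymal cells, and it was detected in 99.5% of IL34LacZ/LacZ and 97.3% of IL34LacZ/+ ependymal cells. Ccdc153, a coiled-coil gene, stood at 1939 CPM in IL34LacZ/LacZ and 2001 CPM in IL34LacZ/+ cells. Foxj1, the transcription factor of motile ciliogenesis, stood at 736 CPM in IL34LacZ/LacZ and 714 CPM in IL34LacZ/+ cells. Dynlrb2, a dynein light chain of motile cilia, stood at 1065 CPM in IL34LacZ/LacZ and 973 CPM in IL34LacZ/+ cells (ratio 1.10, 1.01 to 1.19). By definition, choroid plexus cells held few UMIs of these 4 genes together, so low levels there follow from the choice of cells. Within that limit, Tmem212 and Ccdc153 stood at 1.32 to 3.14 CPM in choroid plexus cells. Foxj1 gave 35.9 CPM in IL34LacZ/LacZ and 28.6 CPM in IL34LacZ/+ choroid plexus cells. Dynlrb2 gave 83.5 CPM in IL34LacZ/LacZ and 84.3 CPM in IL34LacZ/+ choroid plexus cells. Its paralog Dynlrb1, a subunit of cytoplasmic dynein, ran the other way, with 134 CPM in IL34LacZ/LacZ and 139 CPM in IL34LacZ/+ ependymal cells and 232 CPM in IL34LacZ/LacZ and 242 CPM in IL34LacZ/+ choroid plexus cells.

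Several genes of the axoneme were among those of highest fold in ependymal cells over all other cells. The 25 highest, ranked by the lower fold of the 2 libraries, included Fam216b at 387 CPM in IL34LacZ/LacZ and 340.4 CPM in IL34LacZ/+ cells, Sntn, which encodes sentan of the ciliary tip, at 429 CPM in IL34LacZ/LacZ and 462 CPM in IL34LacZ/+ cells, and Stoml3, which encodes a stomatin-like membrane protein, at 253 CPM in IL34LacZ/LacZ and 241 CPM in IL34LacZ/+ cells. Fam183b and Fam166c, whose products lie inside the doublet microtubules, stood at 823 CPM in IL34LacZ/LacZ and 779 CPM in IL34LacZ/+ cells and at 355 CPM in IL34LacZ/LacZ and 366 CPM in IL34LacZ/+ cells, Ttc29, of dynein arms, at 76.3 CPM in IL34LacZ/LacZ and 69.1 CPM in IL34LacZ/+ cells, and Lrrc6, a factor that preassembles dynein arms, at 104 CPM in IL34LacZ/LacZ and 96.9 CPM in IL34LacZ/+ cells. All other cells include cells with ciliary transcripts that the choroid, Ptprc or marker limit left out, among them 84 IL34LacZ/LacZ and 30 IL34LacZ/+ cells with at least 20 marker UMIs above the choroid limit, so folds over other cells are understated. Sntn was 32.7-fold above all other cells in the IL34LacZ/LacZ library and 109-fold in the IL34LacZ/+ library. Tmem212 and Ccdc153, genes of the rule, are also among the 25, and their high folds follow from the choice of cells.

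Genes with no assigned role in cilia stood among those 25 as well. Scn7a, which encodes the sodium-sensing channel Nax, gave 191 CPM in IL34LacZ/LacZ and 197 CPM in IL34LacZ/+ ependymal cells. Syt10, a synaptotagmin of regulated exocytosis, gave 168 CPM in IL34LacZ/LacZ and 197 CPM in IL34LacZ/+ cells, and Slc14a2, a urea transporter gene best known from the kidney, gave 161 CPM in IL34LacZ/LacZ and 147 CPM in IL34LacZ/+ cells. Bbox1, the last enzyme of carnitine synthesis, stood at 175 CPM in IL34LacZ/LacZ and 147 CPM in IL34LacZ/+ cells, and the serotonin receptor gene Htr5b at 56.9 CPM in IL34LacZ/LacZ and 66.6 CPM in IL34LacZ/+ cells. Zp3, known as the sperm-binding glycoprotein of the egg coat, was found in 56.6% of IL34LacZ/LacZ and 35.5% of IL34LacZ/+ ependymal cells, at 126 CPM in IL34LacZ/LacZ and 70.3 CPM in IL34LacZ/+ cells (ratio 1.79, 1.34 to 2.42), and in choroid plexus cells at 0.589 CPM in IL34LacZ/LacZ and 0.176 CPM in IL34LacZ/+ cells. Nuf2, an outer kinetochore subunit of dividing cells, stood at 363 CPM in IL34LacZ/LacZ and 408 CPM in IL34LacZ/+ cells and was detected in 83.5% of IL34LacZ/LacZ and 79.1% of IL34LacZ/+ ependymal cells.

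**Figure D2:**
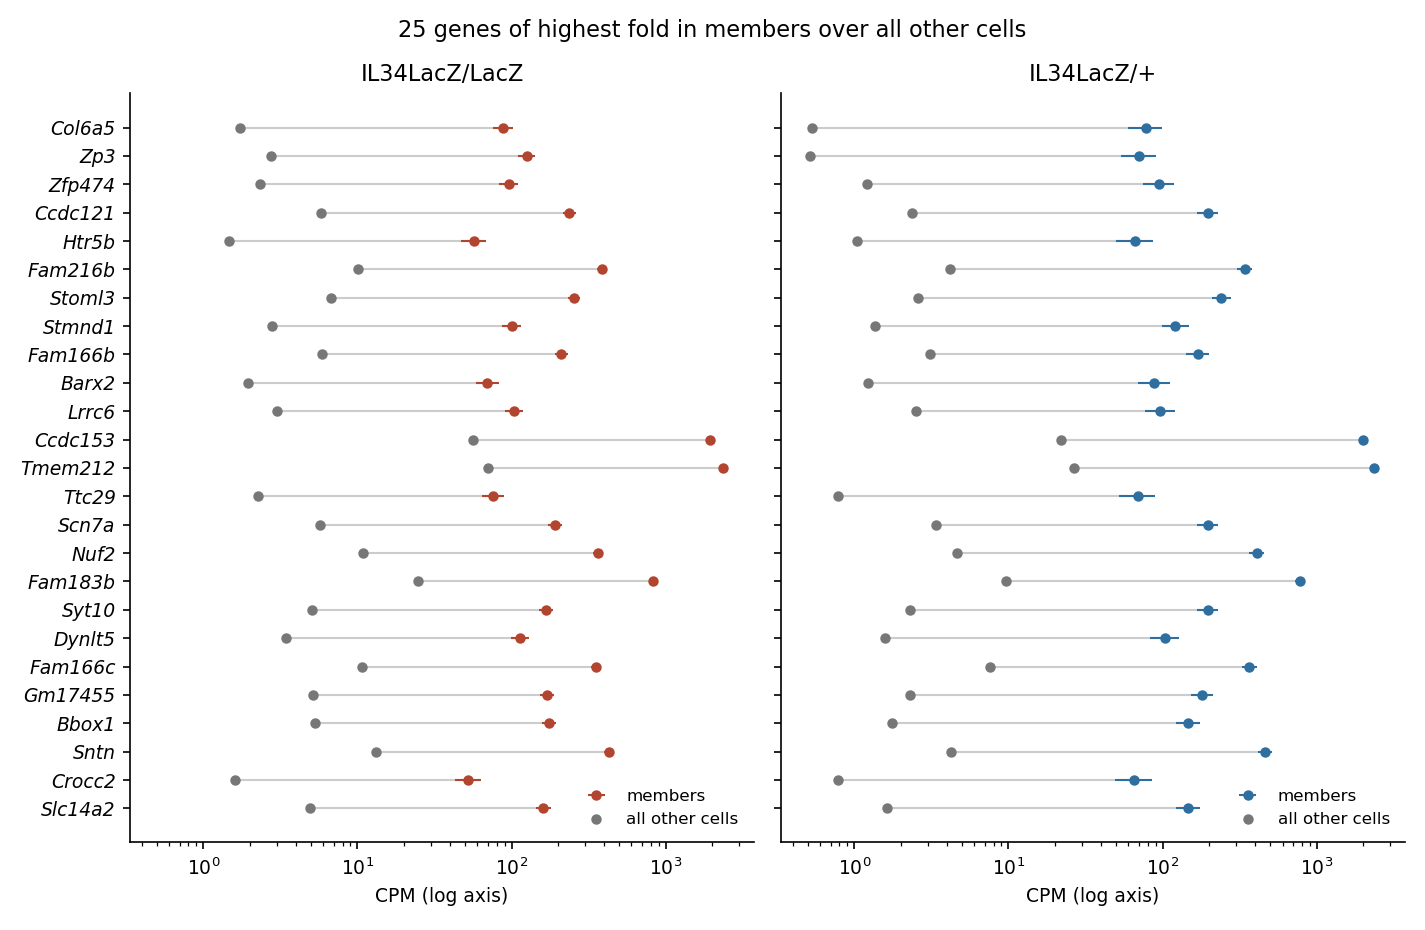
CPM (x axis, log) of the 25 genes of highest fold in ependymal cells over all other cells, with IL34LacZ/LacZ in the left panel and IL34LacZ/+ in the right. Coloured points are ependymal cells (members) with exact Poisson 95% intervals and grey points are all other cells of the same library; the grey points lie at least 32.6-fold lower in every row. Tmem212 and Ccdc153 are genes of the rule that chose the cells.

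Genes of proliferation were scarce. Of 17 cell-cycle genes only Pcna, the sliding clamp of DNA replication and repair, reached 100 UMIs, at 37.1 CPM in IL34LacZ/LacZ and 56.9 CPM in IL34LacZ/+ ependymal cells. Mki67, Cdk1 and Aurkb gave a UMI in 0 of 212 IL34LacZ/LacZ cells and in 0 of 110 IL34LacZ/+ cells, which allows a share of cells with a UMI of up to 1.42% in the IL34LacZ/LacZ and 2.73% in the IL34LacZ/+ library for counting error alone. Cenpf, a kinetochore-associated protein, stood at 26.9 CPM in IL34LacZ/LacZ and 43.6 CPM in IL34LacZ/+ cells.

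Promoters of these genes were read to see which shared letters they hold, because RFX factors bind the X-box and FOXJ1 binds a forkhead site. The windows run from 250 bases before to 50 bases after the annotated start in RefSeq (GRCm38.p6), and 18 of the 25 genes had one. The motifs searched on both strands were the single X-box site GTTGCC, the X-box pair GTTNCC followed after 1 to 3 bases by GGNAAC (which can overlap the single site), and the forkhead site TGTTTAC. The 5 promoters printed show genes of the rule and of the 25 in which a motif was found; capitals mark a motif on either strand.

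Ccdc153: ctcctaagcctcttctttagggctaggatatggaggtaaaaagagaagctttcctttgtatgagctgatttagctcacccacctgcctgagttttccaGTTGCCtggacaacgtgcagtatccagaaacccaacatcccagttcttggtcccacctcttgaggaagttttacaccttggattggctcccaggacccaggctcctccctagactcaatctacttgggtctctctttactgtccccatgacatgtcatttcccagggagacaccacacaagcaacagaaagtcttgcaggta
Dynlrb2: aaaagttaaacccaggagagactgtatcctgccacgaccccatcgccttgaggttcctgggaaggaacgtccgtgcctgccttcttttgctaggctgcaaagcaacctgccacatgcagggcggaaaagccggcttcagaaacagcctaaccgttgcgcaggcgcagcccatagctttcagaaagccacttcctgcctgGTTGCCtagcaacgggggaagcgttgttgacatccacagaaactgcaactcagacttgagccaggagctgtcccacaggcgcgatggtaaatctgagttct
Fam183b: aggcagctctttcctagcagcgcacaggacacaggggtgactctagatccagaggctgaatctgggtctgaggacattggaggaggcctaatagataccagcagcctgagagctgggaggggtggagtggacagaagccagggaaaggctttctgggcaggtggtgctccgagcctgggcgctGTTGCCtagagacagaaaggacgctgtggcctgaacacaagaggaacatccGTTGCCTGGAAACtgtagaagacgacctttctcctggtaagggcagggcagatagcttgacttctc
Stoml3: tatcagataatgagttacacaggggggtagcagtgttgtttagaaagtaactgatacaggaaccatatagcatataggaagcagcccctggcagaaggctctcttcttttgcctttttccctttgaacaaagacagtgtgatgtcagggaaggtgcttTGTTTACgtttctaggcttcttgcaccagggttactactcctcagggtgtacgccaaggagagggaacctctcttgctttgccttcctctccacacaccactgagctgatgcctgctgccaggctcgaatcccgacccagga
Sntn: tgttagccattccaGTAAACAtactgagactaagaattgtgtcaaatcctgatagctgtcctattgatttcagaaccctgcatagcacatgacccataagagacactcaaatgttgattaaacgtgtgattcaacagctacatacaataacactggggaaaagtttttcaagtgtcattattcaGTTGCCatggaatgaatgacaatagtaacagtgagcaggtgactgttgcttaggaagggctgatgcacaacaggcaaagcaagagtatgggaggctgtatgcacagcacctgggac

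The Ccdc153 window (chr9:44240427-44240726, plus strand) holds a single site at -152 from the start and the Dynlrb2 window (chr8:116504765-116505064, plus strand) one at -51. In Fam183b (chr11:58801911-58802210, minus strand) single X-box sites lie at -67 and -16, the second within a full pair. Stoml3 (chr3:53488457-53488756, plus strand) holds a forkhead site at -92, and Sntn (chr14:13670626-13670925, plus strand) a forkhead site at -236 and a single site at -66. None of the motifs was found in the window of Tmem212, and Foxj1 had no entry. Over all 17492 promoters of protein-coding genes in the table, 14.3% held the single site, 0.835% the pair and 3.45% the forkhead site. Among the 18 windows of the highest-fold genes, 33.3% held the single site, 5.56% the pair and 33.3% the forkhead site. The 18 include Tmem212 and Ccdc153, genes of the rule, and Ccdc153 is counted among those with the single site. The single site was in 63.6% of 11 dynein assembly promoters, 52.2% of 23 BBSome and ciliary gate promoters, 50% of 22 radial spoke and central pair promoters, 47.8% of 23 intraflagellar transport promoters and 29.4% of 17 axonemal dynein promoters. It was in 15.8% of 19 respiratory chain promoters, in 41.2% of 17 transport promoters, in 33.3% of 9 choroid plexus marker promoters, and in none of 19 promoters of secreted and lipid carrier genes. The forkhead site was in 0% of the dynein assembly, BBSome and ciliary gate, radial spoke, intraflagellar transport and axonemal dynein promoters. It was also in 0% of the respiratory chain and transport promoters. It was in 8.70% of 23 doublet microtubule, 5.26% of 19 secreted and lipid carrier and 11.1% of 9 choroid plexus marker promoters. A match is a string of letters and says nothing of binding.

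**Figure D3:**
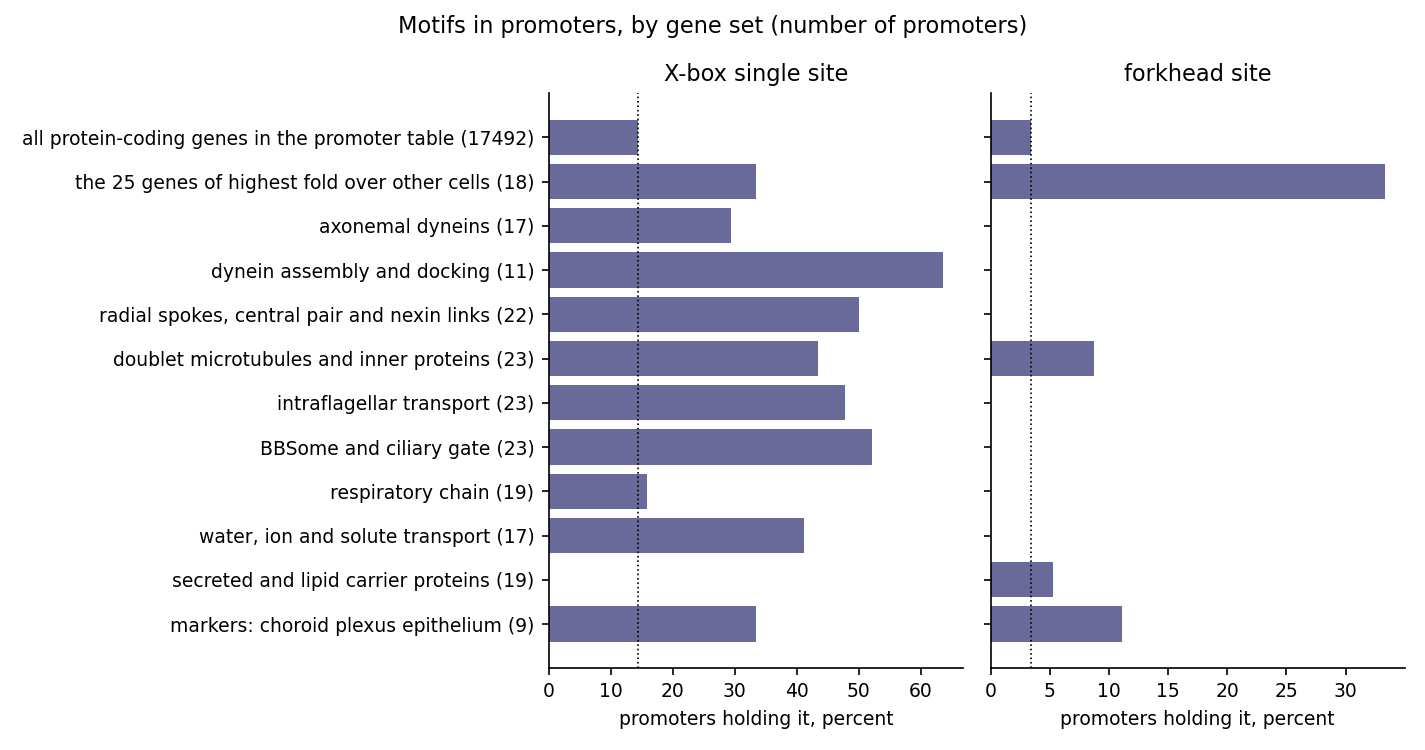
Percent of promoters (x axis) that hold the single X-box site or the forkhead site on either strand, by gene set (rows, with the number of promoters); the dotted line marks all promoters in the table. The single site reached 63.6% in dynein assembly genes against 14.3% of all promoters. The forkhead site reached 33.3% in the highest-fold genes against 3.45% of all promoters. It stood at 0% in the dynein assembly, axonemal dynein, radial spoke, intraflagellar transport and BBSome lists.

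At the head of the multiciliation cascade the early factors were scarce and the late ones abundant. Myb, an amplifier of the cascade that is otherwise known from dividing progenitors, gave 205 CPM in IL34LacZ/LacZ and 229 CPM in IL34LacZ/+ ependymal cells, and 13.8 CPM in all other IL34LacZ/LacZ cells and 5.97 CPM in all other IL34LacZ/+ cells. Rfx4 stood at 154 CPM in IL34LacZ/LacZ and 159.9 CPM in IL34LacZ/+ cells, Rfx3 at 151 CPM in IL34LacZ/LacZ and 169.6 CPM in IL34LacZ/+ cells, Rfx2 at 70.7 CPM in IL34LacZ/LacZ and 77.5 CPM in IL34LacZ/+ cells, and Trp73, the gene of p73, at 49.8 CPM in IL34LacZ/LacZ and 50.9 CPM in IL34LacZ/+ cells. Gmnc, the gene of GEMC1, gave 20.8 CPM in IL34LacZ/LacZ and 21.8 CPM in IL34LacZ/+ ependymal cells, and 26.9 CPM in IL34LacZ/LacZ and 20.5 CPM in IL34LacZ/+ choroid plexus cells. Mcidas, the gene of Multicilin, gave no UMI in either library, and Ccno, which acts in centriole amplification, gave 9 UMIs in IL34LacZ/LacZ and 4 UMIs in IL34LacZ/+ cells. Of the 14 factors other than Foxj1, which is a gene of the rule, 6 reached 100 UMIs over both libraries and 5 of these stood at least 4-fold above all other cells in both libraries. Of the 5135 genes measured at that depth, 16.2% did. The cells were chosen by such a contrast, and nothing is read from these counts. Between the genotypes, the 6 factors all had ratios below 1, as did 50.6% of all measured genes. Their median ratio was 0.923, and no interval left 1.

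The motors of the axoneme were higher in ependymal cells than in the neighbouring choroid plexus. Of 20 genes for axonemal dynein chains, one, Dynlrb2, belongs to the rule and is left out here. Of the other 19 genes, 18 reached 100 UMIs, and these 18 were at least 4-fold above choroid plexus cells in both libraries, as were 24% of all measured genes. Choroid plexus cells were required to hold fewer than 5 UMIs of the ependymal genes, so this is a description of the classes. Together the 19 gave 3633 CPM in IL34LacZ/LacZ and 3656 CPM in IL34LacZ/+ ependymal cells, 165 CPM in IL34LacZ/LacZ and 152 CPM in IL34LacZ/+ choroid plexus cells, and 101 CPM in IL34LacZ/LacZ and 69.6 CPM in IL34LacZ/+ macrophage-marked cells. Macrophages bear no motile cilia, but 35 of 3012 IL34LacZ/LacZ and 18 of 2394 IL34LacZ/+ macrophage-marked cells held at least 5 UMIs of the ependymal genes, up to 202 in an IL34LacZ/LacZ and 150 in an IL34LacZ/+ cell. Free RNA, released by broken cells and caught in other droplets, was not measured apart from such cells. The outer-arm heavy chains Dnah5 and Dnah9 stood at 374 CPM in IL34LacZ/LacZ and 386 CPM in IL34LacZ/+ cells and at 247 CPM in IL34LacZ/LacZ and 263 CPM in IL34LacZ/+ cells, and their paralog Dnah8, known from sperm, at 2 UMIs in IL34LacZ/LacZ and 0 in IL34LacZ/+ ependymal cells. Dnah5 was found in 83.5% of IL34LacZ/LacZ ependymal cells with a median 8213 UMIs, against 1.43% of macrophage-marked cells with a median 4747.5 UMIs, and in 78.2% of IL34LacZ/+ ependymal cells at 7753.5 UMIs, against 0.585% of macrophage-marked cells at 4388.5 UMIs. Among inner-arm chains, Dnah6 gave 423 CPM in IL34LacZ/LacZ and 365 CPM in IL34LacZ/+ cells, Dnah12 422 CPM in IL34LacZ/LacZ and 453 CPM in IL34LacZ/+ cells, and Dnah3 162 CPM in IL34LacZ/LacZ and 209.6 CPM in IL34LacZ/+ cells.

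Between the genotypes the ratios of the dynein genes lay close to 1. Without Dynlrb2, the median ratio of the 18 measured dyneins was 0.986, against 0.997 over all measured genes, with 8 ratios above 1 and 10 below. The interval lay above 1 for Dnah6 (ratio 1.16, 1.02 to 1.33) and below 1 for Dnah3 (ratio 0.774, 0.641 to 0.937). Over all measured genes 5.16% had an interval above 1 and 5.82% below. The 18 genes that assemble and dock dynein arms had a similar median ratio, 0.988 over the 13 measured. Mns1, a microtubule inner protein of that list, was its most abundant member, at 581 CPM in IL34LacZ/LacZ and 605 CPM in IL34LacZ/+ cells.

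Radial spoke, central pair and nexin link genes leaned to one side. Of 23 measured genes, 2 had a ratio above 1 and 21 below, with a median of 0.925, and their sum was 6149 CPM in IL34LacZ/LacZ and 6662 CPM in IL34LacZ/+ ependymal cells (0.923, 0.894 to 0.953). Over all measured genes 49.4% had a ratio above 1 and 50.6% below, and 5.82% had an interval below 1. The interval lay below 1 for 3 of the 23: Spag17, a central pair scaffold (251 CPM in IL34LacZ/LacZ and 314 CPM in IL34LacZ/+ cells, ratio 0.801, 0.687 to 0.934), Iqcg, a nexin link subunit (ratio 0.849, 0.737 to 0.98), and Cfap221, of the central pair (30.5 CPM in IL34LacZ/LacZ and 49.7 CPM in IL34LacZ/+ cells, ratio 0.614, 0.406 to 0.937). Spag16, another central pair protein, was one of the 2 above 1 (ratio 1.16, 0.949 to 1.42). Rsph1, a radial spoke head protein, was the most abundant at 841 CPM in IL34LacZ/LacZ and 909.8 CPM in IL34LacZ/+ cells, followed by Cfap54 at 609.6 CPM in IL34LacZ/LacZ and 625 CPM in IL34LacZ/+ cells. No gene of the list reached a 2-fold difference in either direction.

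Intraflagellar transport genes, whose products carry cargo along the axoneme, leaned the same way. Of 26 measured genes, 5 ratios were above 1 and 21 below, the median was 0.929, and the sum was 4001 CPM in IL34LacZ/LacZ and 4324 CPM in IL34LacZ/+ ependymal cells (0.925, 0.889 to 0.963). Among all measured genes 49.4% had a ratio above 1 and 50.6% below, and 5.82% had an interval below 1. Ift122, of the retrograde complex (ratio 0.741, 0.564 to 0.978), and Hspb11, also known as Ift25, of the anterograde complex (ratio 0.696, 0.531 to 0.918), were the 2 of 26 whose interval lay below 1, a count near that share. Ift20, which links the complex to the Golgi, stood at 294 CPM in IL34LacZ/LacZ and 338 CPM in IL34LacZ/+ cells. The mitochondrial share differed in the same direction between the libraries, with a median of 6.45% in IL34LacZ/LacZ and 7.26% in IL34LacZ/+ cells, and its part in these small differences was not tested.

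Doublet microtubule genes did not lean. Of 22 measured genes 11 had a ratio above 1 and 11 below, and they summed to 10352 CPM in IL34LacZ/LacZ and 10318 CPM in IL34LacZ/+ ependymal cells. The tubulins Tuba1a and Tubb4b led them, at 1870.1 CPM in IL34LacZ/LacZ and 1915 CPM in IL34LacZ/+ cells and at 1789.8 CPM in IL34LacZ/LacZ and 1834 CPM in IL34LacZ/+ cells. Tekt1, a tektin (ratio 0.844, 0.726 to 0.984), had an interval below 1, and Fam166b, a microtubule inner protein (ratio 1.24, 1.02 to 1.51), one of the 2 above 1. The BBSome and ciliary gate list split evenly too, 10 above and 10 below, with Bbs4 the single gene whose interval left 1, at 41.7 CPM in IL34LacZ/LacZ and 23 CPM in IL34LacZ/+ cells (ratio 1.81, 1.09 to 3.16). Among all measured genes 5.16% had an interval above 1 and 5.82% below. Of basal body genes, Deup1 and Ccdc78 of the deuterosome, on which multiciliated cells multiply their centrioles, gave 31.5 CPM in IL34LacZ/LacZ and 35.1 CPM in IL34LacZ/+ cells and 76.8 CPM in IL34LacZ/LacZ and 58.1 CPM in IL34LacZ/+ cells.

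**Figure D4:**
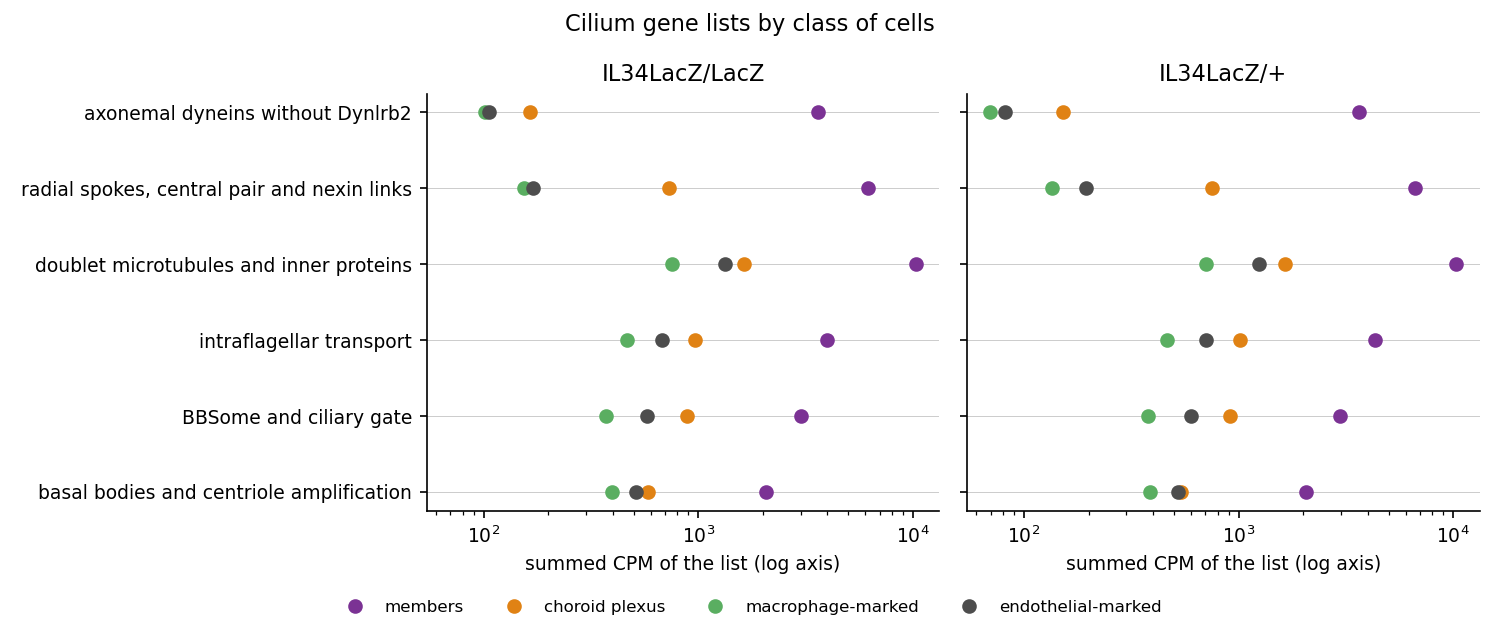
Summed CPM (x axis, log) of each cilium gene list (rows) in ependymal cells (members), choroid plexus cells, macrophage-marked cells and endothelial-marked cells (at least 5 UMIs of Cldn5, Flt1, Ly6c1 and Pecam1, no Ptprc, not ependymal), with IL34LacZ/LacZ in the left panel and IL34LacZ/+ in the right. In the IL34LacZ/LacZ library axonemal dyneins other than Dynlrb2 gave 3633 CPM in ependymal cells, against 101 CPM in macrophage-marked cells, and in the IL34LacZ/+ library 3656 CPM, against 69.6 CPM.

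Ependymal cells held other water channels than choroid plexus cells, and one surface gene of the sort. Aqp4, the water channel of astrocytes and ependyma, stood at 778 CPM in IL34LacZ/LacZ and 768 CPM in IL34LacZ/+ ependymal cells, and at 5.50 CPM in IL34LacZ/LacZ and 4.93 CPM in IL34LacZ/+ choroid plexus cells. Aqp1, the water channel of the choroid plexus, gave 3 UMIs in IL34LacZ/LacZ and 2 UMIs in IL34LacZ/+ ependymal cells and 76.8 CPM in IL34LacZ/LacZ and 70.7 CPM in IL34LacZ/+ choroid plexus cells. Slc2a1, the glucose transporter GLUT1, gave 499 CPM in IL34LacZ/LacZ and 526 CPM in IL34LacZ/+ ependymal cells. Kcnj10 and Kcnj16, subunits that form the potassium channel Kir4.1/Kir5.1, gave 343 CPM in IL34LacZ/LacZ and 256 CPM in IL34LacZ/+ cells (ratio 1.34, 1.15 to 1.57) and 54.4 CPM in IL34LacZ/LacZ and 46.0 CPM in IL34LacZ/+ cells. Atp1b2, whose product carries the ACSA-2 epitope by which astrocytes were sorted, was found in 80.2% of IL34LacZ/LacZ and 77.3% of IL34LacZ/+ ependymal cells, at 298 CPM in IL34LacZ/LacZ and 302 CPM in IL34LacZ/+ cells. The genes of the other gates were low. In IL34LacZ/LacZ ependymal cells, Itgam of CD11b gave 7 UMIs, Anpep of CD13 6, Adgre1 of F4/80 21, Pdgfra of CD140a 19 and Pecam1 of CD31 34. In IL34LacZ/+ ependymal cells the counts were 3 of Itgam, 1 of Anpep, 2 of Adgre1, 1 of Pdgfra and 15 of Pecam1. How each cell entered the sort is not recorded in the files. Fzd3 and Celsr1, planar polarity proteins that align the cilia, gave 608 CPM in IL34LacZ/LacZ and 565 CPM in IL34LacZ/+ cells and 89.5 CPM in IL34LacZ/LacZ and 87.2 CPM in IL34LacZ/+ cells, and Gja1, the gap junction protein connexin 43, 622 CPM in IL34LacZ/LacZ and 592 CPM in IL34LacZ/+ cells.

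Glial genes were held beside the ciliary ones, and progenitor genes were near absent. Sox9, a glial transcription factor, stood at 1355 CPM in IL34LacZ/LacZ and 1279 CPM in IL34LacZ/+ ependymal cells, Vim, of intermediate filaments, at 777 CPM in IL34LacZ/LacZ and 821 CPM in IL34LacZ/+ cells, and the calcium-binding S100b at 504 CPM in IL34LacZ/LacZ and 431 CPM in IL34LacZ/+ cells. The neural stem and progenitor markers held 8 genes, Dcx and Egfr among them, and none reached 100 UMIs; their sum was 53.9 CPM in IL34LacZ/LacZ and 64.2 CPM in IL34LacZ/+ cells. Of 9 tanycyte markers only Scn7a was measured, and Rax, the defining factor of tanycytes, gave no UMI in either library. Nnat, an imprinted proteolipid gene, stood at 2989 CPM in IL34LacZ/LacZ and 2641 CPM in IL34LacZ/+ cells (ratio 1.13, 1.08 to 1.19) and was 25.2-fold above all other cells in the IL34LacZ/LacZ library and 71.3-fold in the IL34LacZ/+ library. Of the 19 measured genes of the list of ependymal glial and surface markers, Gfap, the astrocyte intermediate filament, passed the 2-fold call, at 35.6 CPM in IL34LacZ/LacZ and 75.1 CPM in IL34LacZ/+ cells (ratio 0.474, 0.332 to 0.678), with 15.2% of its UMIs in 1 cell. In cells with a mitochondrial share of at most 5% its log2 ratio was 0.41, the other direction. Of the 19 genes, 4 had an interval above 1 and 3 below, Gfap among the 3. Among all measured genes 0.136% were called lower, 5.16% had an interval above 1 and 5.82% one below.

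Genes of metal-binding and lipid-binding proteins were among the most abundant. With mitochondrially encoded and ribosomal protein genes left out (mt-Co3 alone gave 12142 CPM in IL34LacZ/LacZ and 12805 CPM in IL34LacZ/+ ependymal cells), Dbi, which binds acyl-CoA, led with 15195 CPM in IL34LacZ/LacZ and 14800.2 CPM in IL34LacZ/+ ependymal cells. Mt3, a metallothionein gene, came next, at 12493 CPM in IL34LacZ/LacZ and 10485 CPM in IL34LacZ/+ cells (ratio 1.19, 1.16 to 1.22), ahead of Rn18s, Hsp90aa1 and the ferritin gene Fth1. Its paralog Mt1 stood at 6332 CPM in IL34LacZ/LacZ and 5598 CPM in IL34LacZ/+ cells (ratio 1.13, 1.09 to 1.17), and Mt2 stood at 958 CPM in IL34LacZ/LacZ and 706 CPM in IL34LacZ/+ cells (ratio 1.36, 1.24 to 1.49). Rarres2, which encodes chemerin, a ligand that attracts leukocytes, gave 2987 CPM in IL34LacZ/LacZ and 3073 CPM in IL34LacZ/+ ependymal cells and 44.8 CPM in IL34LacZ/LacZ and 32.6 CPM in IL34LacZ/+ macrophage-marked cells. Ecrg4, a secreted augurin, gave 1465 CPM in IL34LacZ/LacZ and 1173 CPM in IL34LacZ/+ cells (ratio 1.25, 1.16 to 1.34), and Clu, a secreted chaperone, 3713 CPM in IL34LacZ/LacZ and 3379.9 CPM in IL34LacZ/+ cells. Plac9a gave 4726 CPM in IL34LacZ/LacZ and 4182 CPM in IL34LacZ/+ cells, and Hsp90aa1, the inducible HSP90 chaperone, 6223 CPM in IL34LacZ/LacZ and 6569.7 CPM in IL34LacZ/+ cells, against 845 CPM in all other IL34LacZ/LacZ cells and 819 CPM in all other IL34LacZ/+ cells. In the secreted list 16 of 21 ratios lay above 1, the median was 1.12, and 12 intervals lay above 1 and 1 below, where 49.4% of all measured genes had a ratio above 1 and 5.16% an interval above and 5.82% one below. The 12 include the called genes Apod (ratio 4.82, 35.6% of UMIs in 1 cell) and Igfbp7 (ratio 2.45, 39.5% in 1 cell), and both turned in an alternative: Apod to a log2 ratio of -0.83 at a mitochondrial share of at most 5%, and Igfbp7 to -0.54 without cells that held over 10 UMIs of other cell types. The gene with an interval below 1 was Apoe, the lipid carrier, at 4612 CPM in IL34LacZ/LacZ and 5901 CPM in IL34LacZ/+ cells (ratio 0.782, 0.755 to 0.809), which macrophage-marked cells held at 21212 CPM in IL34LacZ/LacZ and 26533 CPM in IL34LacZ/+ cells; the part of free RNA in its ratio was not tested. Whether genotype moved any of these cannot be told apart from the library.

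Folr1, the folate receptor alpha gene, was 1 of the 4 genes counted against a cell as choroid plexus, and it made up most of that count in ependymal cells. It gave 203 of 216 choroid-sum UMIs in IL34LacZ/LacZ ependymal cells (94.0%) and 98 of 111 in IL34LacZ/+ ependymal cells (88.3%). In choroid plexus cells it was 31.0% of the same sum (IL34LacZ/LacZ) and 32.9% (IL34LacZ/+), and in macrophage-marked cells 28.6% (IL34LacZ/LacZ) and 30.4% (IL34LacZ/+). Per 1000 UMIs of Ttr, the transthyretin gene that dominates choroid RNA, IL34LacZ/LacZ ependymal cells held 54.6 UMIs of Folr1, against 2.91 in choroid plexus cells and 3.56 in macrophage-marked cells of the same library. IL34LacZ/+ ependymal cells held 44.9, against 3.01 in choroid plexus cells and 3.37 in macrophage-marked cells. These 4 genes were used by the rule, which capped their sum at 3 in a cell, so the shares are a description. The other choroid genes were low, with 3 UMIs of Kcnj13, 9 of Prlr and 1 of Kcne2 in IL34LacZ/LacZ ependymal cells and 4, 9 and 0 of the same genes in IL34LacZ/+ ependymal cells. Ttr stood at 1889 CPM in IL34LacZ/LacZ and 2642 CPM in IL34LacZ/+ ependymal cells.

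The choroid limit also left out cells with ciliary transcripts. Of cells with at least 20 marker UMIs and no Ptprc, 76 in the IL34LacZ/LacZ library and 28 in the IL34LacZ/+ library exceeded the choroid limit. The 76 IL34LacZ/LacZ cells held 3463 CPM of axonemal dyneins other than Dynlrb2, beside 3633 CPM in IL34LacZ/LacZ ependymal cells. The 28 IL34LacZ/+ cells held 3512 CPM of the same dyneins, beside 3656 CPM in IL34LacZ/+ ependymal cells. Folr1 made up 66.3% (IL34LacZ/LacZ) and 62.7% (IL34LacZ/+) of their choroid sum, between the shares of ependymal and choroid plexus cells, and Ttr reached 30847 CPM (IL34LacZ/LacZ) and 36086 CPM (IL34LacZ/+). Their median depth was 17012.5 UMIs in IL34LacZ/LacZ and 15982 UMIs in IL34LacZ/+ cells. A further 95 IL34LacZ/LacZ and 144 IL34LacZ/+ cells had 5 to 19 marker UMIs and lay above the choroid limit, with 217 CPM (IL34LacZ/LacZ) and 228 CPM (IL34LacZ/+) of those dyneins and a median choroid sum of 61 UMIs (IL34LacZ/LacZ) and 69 UMIs (IL34LacZ/+). Without Folr1 in the choroid sum, 282 IL34LacZ/LacZ and 133 IL34LacZ/+ cells would have been ependymal.

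Transcription factors that mark regions of the neural axis were detected in part of the ependymal cells. Of 34 such factors, 6 reached 100 UMIs. In IL34LacZ/LacZ ependymal cells Zic1 stood at 81.4 CPM, Irx5 at 69.7, Zic4 at 66.1, Otx2 at 51.4, Irx3 at 46.3 and Six3 at 40.2 CPM, and in IL34LacZ/+ ependymal cells Zic1 stood at 92.1 CPM, Irx5 at 71.5, Zic4 at 63.0, Otx2 at 54.5, Irx3 at 56.9 and Six3 at 52.1 CPM. Zic1 and Zic4, neighbouring zinc finger genes of the dorsal midline, were found together: Zic4 gave a UMI in 61.8% of IL34LacZ/LacZ cells with Zic1 (49.2 to 73.3%) and in 8.33% of those without it (4.38 to 14.1%), and in 59.0% of IL34LacZ/+ cells with Zic1 (42.1 to 74.4%) and 4.23% of those without it (0.880 to 11.9%). Cells with Zic1 were deeper, at a median 10220.5 against 7560 UMIs in the IL34LacZ/LacZ library and 8889 against 6046 UMIs in the IL34LacZ/+ library. Zic1 is also a gene of meningeal fibroblasts, and it had a UMI in 32.1% of IL34LacZ/LacZ and 35.5% of IL34LacZ/+ ependymal cells, against 11.8% of IL34LacZ/LacZ and 9.19% of IL34LacZ/+ macrophage-marked cells. Otx2, a forebrain, midbrain and choroid factor, was detected more often in cells with Folr1, which were also deeper. Of IL34LacZ/LacZ cells with Folr1, 36.8% (28.0 to 46.4%) had an Otx2 UMI, and of those without 12.2% (6.49 to 20.4%), at median depths of 9368.5 and 6993.5 UMIs. In the IL34LacZ/+ library the shares were 32.3% (20.9 to 45.3%) with Folr1 and 10.4% (3.47 to 22.7%) without, at 8864.5 and 3970.5 UMIs. Deeper cells hold more UMIs of any gene, and the rule capped Folr1. The part of depth in the shares of both pairs was not tested, and their intervals count cells of 1 library.

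Acta2 and Car9 were detected in 42.0 to 50.9% of ependymal cells. At their levels a cell of median depth holds few UMIs of either, so a cell without one is not shown to lack the gene. Acta2, smooth muscle actin, was found in 43.4% of IL34LacZ/LacZ and 46.4% of IL34LacZ/+ ependymal cells, at 148 CPM in IL34LacZ/LacZ and 242 CPM in IL34LacZ/+ cells (ratio 0.613, 0.51 to 0.737), against a UMI in 2.09% of IL34LacZ/LacZ and 1.34% of IL34LacZ/+ macrophage-marked cells. Rgs5 and Pdgfrb, defining genes of mural cells, gave 34 and 21 UMIs in IL34LacZ/LacZ ependymal cells, and 10 and 3 UMIs in IL34LacZ/+ ependymal cells. Tagln, which binds actin in smooth muscle, stood at 43.7 CPM in IL34LacZ/LacZ and 73.9 CPM in IL34LacZ/+ cells (ratio 0.592, 0.421 to 0.836). Car9, the carbonic anhydrase known as a hypoxia target, was found in 42.0% of IL34LacZ/LacZ and 50.9% of IL34LacZ/+ ependymal cells, at 99.7 CPM in IL34LacZ/LacZ and 153 CPM in IL34LacZ/+ cells (ratio 0.653, 0.519 to 0.823), against 4.97 CPM in all other IL34LacZ/LacZ cells and 2.42 CPM in all other IL34LacZ/+ cells. Of IL34LacZ/LacZ cells with Acta2, 55.4% (44.7 to 65.8%) had Car9, and of those without it 31.7% (23.5 to 40.8%), at median depths of 8940.5 and 7747 UMIs. The IL34LacZ/+ shares were 64.7% (50.1 to 77.6%) with Acta2 and 39% (26.5 to 52.6%) without, at 8582 and 6214 UMIs. Folr1, which the rule capped, was also found more often with Acta2. The IL34LacZ/LacZ shares were 65.2% (54.6 to 74.9%) with Acta2 and 45% (35.9 to 54.3%) without. In IL34LacZ/+ cells they were 70.6% (56.2 to 82.5%) with Acta2 and 44.1% (31.2 to 57.6%) without. The part of depth in these shares was not tested, and their intervals count cells of 1 library. Of 16 measured genes of the hypoxia and glycolysis list, 4 had an interval below 1 and none above, where 5.82% of all measured genes had one below and 5.16% one above.

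Across all genes the ependymal cells of the 2 libraries were close. Of 5135 genes with at least 100 UMIs over both libraries, 22 were at least 2-fold higher in IL34LacZ/LacZ ependymal cells with an interval above 1 (0.428%) and 7 at least 2-fold lower with an interval below 1 (0.136%). At 1.5-fold, 105 were higher (2.04%) and 75 lower (1.46%). Many of these genes had much of their UMIs in 1 cell or are markers of another cell type. The haemoglobin genes were 4 of the 7 lower ones, and a single IL34LacZ/+ cell held 3809 of the 3920 haemoglobin UMIs there (97.2%). The 8 fibroblast markers summed to 239 CPM in IL34LacZ/LacZ and 69.1 CPM in IL34LacZ/+ ependymal cells; of them Dcn (ratio 4.64, 2.82 to 8.14) and Col1a2 (ratio 2.75, 1.78 to 4.41) were called, and the other 6, Col1a1 and Col3a1 among them, did not reach 100 UMIs.

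With at most 10% of UMIs in 1 cell, 8 genes were called higher and 1 lower. The immediate-early factor Egr1 stood at 113 CPM in IL34LacZ/LacZ and 53.3 CPM in IL34LacZ/+ ependymal cells (ratio 2.12, 1.53 to 3.00). Wnt5a, a secreted ligand of non-canonical Wnt signalling, stood at 70.7 CPM in IL34LacZ/LacZ and 35.1 CPM in IL34LacZ/+ cells (ratio 2.01, 1.34 to 3.11), and Dner, a Notch ligand, at 61.5 CPM in IL34LacZ/LacZ and 29.1 CPM in IL34LacZ/+ cells (ratio 2.12, 1.36 to 3.43). Igsf9b, an adhesion protein of inhibitory synapses, gave 66.1 CPM in IL34LacZ/LacZ and 29.1 CPM in IL34LacZ/+ cells (ratio 2.27, 1.46 to 3.68), and Kifc3, a minus-end kinesin, 42.7 CPM in IL34LacZ/LacZ and 20.6 CPM in IL34LacZ/+ cells (ratio 2.07, 1.22 to 3.73). Col1a2, Fam171b (ratio 2.14, 1.30 to 3.71) and Gon7 (ratio 2.12, 1.25 to 3.81) were the others higher, and Pawr, the pro-apoptotic protein PAR-4, was lower at 34.6 CPM in IL34LacZ/LacZ and 73.9 CPM in IL34LacZ/+ cells (ratio 0.468, 0.326 to 0.672). In macrophage-marked cells Igsf9b gave 7.89 CPM in the IL34LacZ/LacZ and 3.38 CPM in the IL34LacZ/+ library, Dner 3.52 CPM (IL34LacZ/LacZ) and 3.73 CPM (IL34LacZ/+), Wnt5a 7.49 CPM (IL34LacZ/LacZ) and 3.73 CPM (IL34LacZ/+), and Kifc3 9.55 CPM (IL34LacZ/LacZ) and 10.3 CPM (IL34LacZ/+). Igsf9b and Wnt5a were higher in IL34LacZ/LacZ among all other cells too. There Igsf9b gave 36.5 CPM (IL34LacZ/LacZ) and 17.0 CPM (IL34LacZ/+), and Wnt5a 32.0 CPM (IL34LacZ/LacZ) and 19.8 CPM (IL34LacZ/+). Dner gave 9.51 CPM (IL34LacZ/LacZ) and 7.27 CPM (IL34LacZ/+) there, and Kifc3 15.1 CPM (IL34LacZ/LacZ) and 16.6 CPM (IL34LacZ/+).

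Most immediate-early and dissociation genes leaned to the IL34LacZ/LacZ side, but their sum did not. Of 22 measured genes 15 had a ratio above 1, 7 of them by at least 1.5-fold, and the median was 1.25, against 0.997 over all measured genes. The whole list summed to 15242 CPM in IL34LacZ/LacZ and 15256 CPM in IL34LacZ/+ ependymal cells (ratio 0.999, 0.978 to 1.02). Intervals lay above 1 for 9 and below 1 for 2, Hsp90aa1 and Hsp90ab1, which were the most abundant genes of the list. Over all measured genes 49.4% had a ratio above 1, 5.16% had an interval above 1 and 5.82% below, and 2.04% were at least 1.5-fold higher. Fos, of the AP-1 complex, stood at 246 CPM in IL34LacZ/LacZ and 159 CPM in IL34LacZ/+ cells (ratio 1.55, 1.28 to 1.90), the heat-shock gene Hspa1b at 368 CPM in IL34LacZ/LacZ and 199.9 CPM in IL34LacZ/+ cells (ratio 1.84, 1.55 to 2.19), and its co-chaperone Dnajb1 at 152 CPM in IL34LacZ/LacZ and 102 CPM in IL34LacZ/+ cells (ratio 1.49, 1.17 to 1.93). In macrophage-marked cells the same factors were higher than in ependymal cells, and the IL34LacZ/+ value was the higher one, with Fos at 2913 CPM in IL34LacZ/LacZ and 3406 CPM in IL34LacZ/+ cells and Egr1 at 665 CPM in IL34LacZ/LacZ and 755 CPM in IL34LacZ/+ cells. These genes respond to tissue dissociation, and the labels do not compare its course in the libraries; its part in the ratios was not tested. Mitochondrially encoded transcripts leaned to the IL34LacZ/+ side, 11 of 13 ratios below 1 and 8 intervals below 1 (50.6% and 5.82% of all measured genes), with a sum of 61845 CPM in IL34LacZ/LacZ and 65097 CPM in IL34LacZ/+ cells. The interval of mt-Nd3, a complex I subunit, lay above 1 (ratio 1.27, 1.13 to 1.42). The cell filter capped the mitochondrial share at 10%, so these levels are a description of the cells kept. That cap left out 131 IL34LacZ/LacZ and 80 IL34LacZ/+ cells that otherwise met the rule, and its part in the ratios was not tested.

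**Figure D5:**
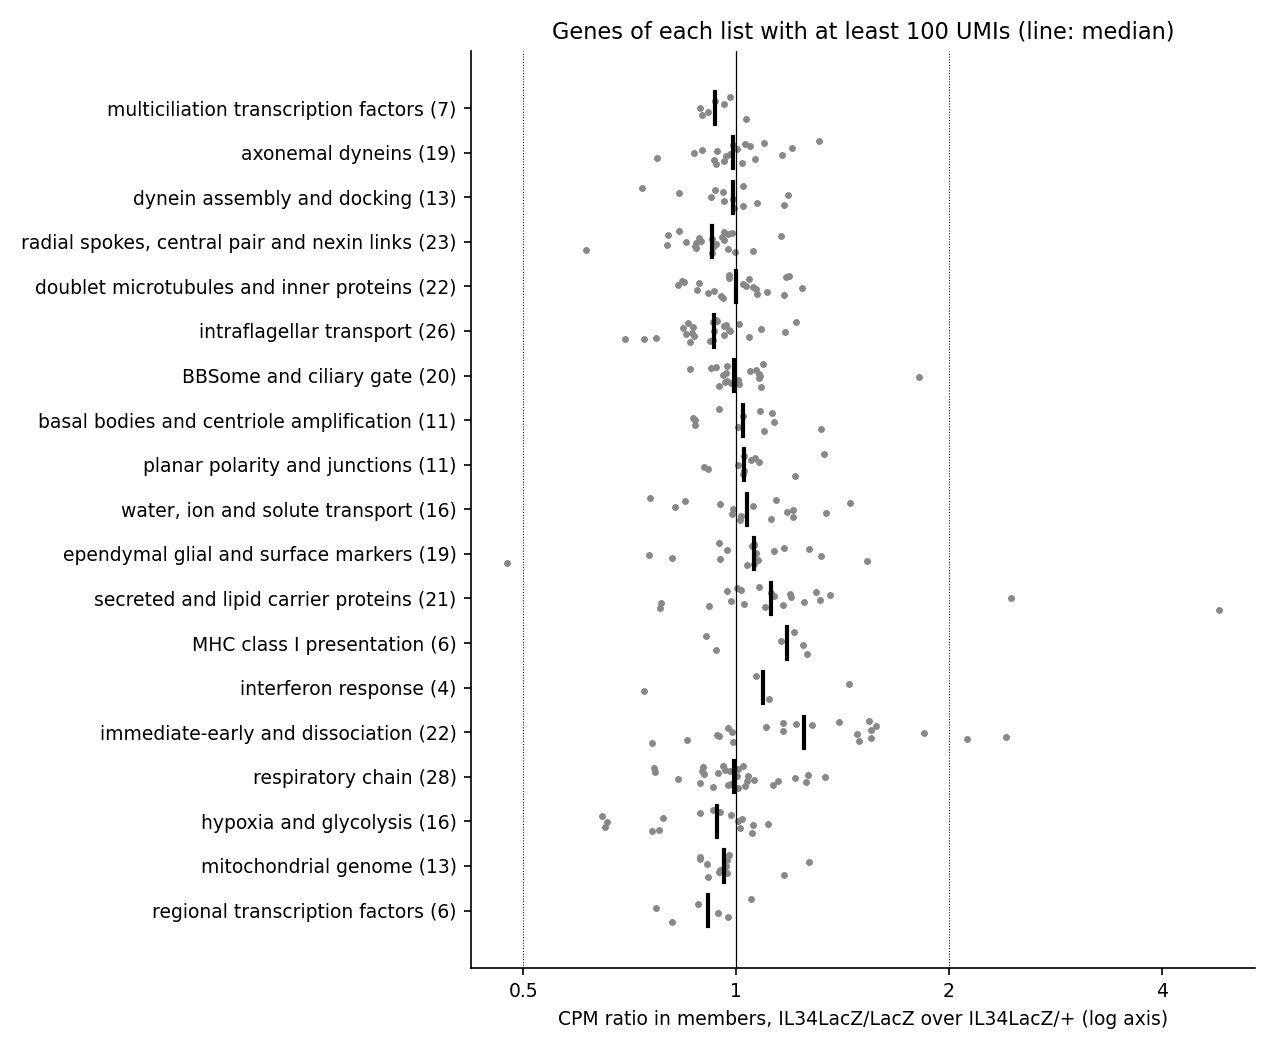
Ratio of CPM in ependymal cells (members), IL34LacZ/LacZ over IL34LacZ/+ (x axis, log), for each gene with at least 100 UMIs in each list (rows); a line marks the median of the list. Radial spoke and intraflagellar transport genes lie mostly below 1, immediate-early genes mostly above, and axonemal dyneins, here with Dynlrb2, on both sides.

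Il34, Csf1 and Csf1r were low in ependymal cells, and Ptprz1 was not. Il34 gave 5 UMIs in IL34LacZ/LacZ and 3 UMIs in IL34LacZ/+ ependymal cells. Csf1, the other ligand of CSF1R, gave 45 UMIs in IL34LacZ/LacZ and 35 UMIs in IL34LacZ/+ cells, or 22.9 CPM in IL34LacZ/LacZ and 42.4 CPM in IL34LacZ/+ cells (ratio 0.54, 0.339 to 0.865), on fewer than 100 UMIs in all. Csf1r stood at 33.0 CPM in IL34LacZ/LacZ and 32.7 CPM in IL34LacZ/+ cells, against 1791 CPM in IL34LacZ/LacZ and 1809.9 CPM in IL34LacZ/+ macrophage-marked cells, and the part of free RNA in it was not tested. Ptprz1, a receptor-type phosphatase to which IL-34 also binds, stood at 368 CPM in IL34LacZ/LacZ and 369 CPM in IL34LacZ/+ cells (ratio 0.996, 0.87 to 1.14). Of 21 interferon response genes 4 reached 100 UMIs, and none passed the 2-fold call. The 6 measured genes of MHC class I presentation had a median ratio of 1.18, and none had an interval that left 1.

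Variation from cell to cell was measured by the Fano factor, the variance over the mean, in cells thinned to 2000 UMIs. Ranked by the mean of the 2 libraries, the 10 highest were Hbb-bs, Hba-a1, Hba-a2, the ribosomal RNA Rn18s, Mgp, Ttr, Cst3, Dbi, Apoe and Ptgds. Some of these rest on 1 library: Hbb-bs had a Fano factor of 0.931 in IL34LacZ/LacZ and 473 in IL34LacZ/+ cells, where 1 cell held 492 of its 511 thinned UMIs. Ttr had 14.2 in IL34LacZ/LacZ and 1.49 in IL34LacZ/+ cells, and Cst3 14.0 in IL34LacZ/LacZ and 1.52 in IL34LacZ/+ cells. Others varied in both libraries while present in nearly every cell. Rn18s had 21.1 in IL34LacZ/LacZ and 27.3 in IL34LacZ/+ cells and was found in 99.0% of IL34LacZ/LacZ and 91.3% of IL34LacZ/+ cells, and Dbi had 7.07 in IL34LacZ/LacZ and 5.52 in IL34LacZ/+ cells and was found in each of them. Mgp, a matrix protein of vascular and fibroblast cells, had 405 of 993 UMIs in 1 IL34LacZ/LacZ cell and 148 of 292 in 1 IL34LacZ/+ cell. Ependymal cells with over 10 UMIs of markers of other cell types were 55 of 212 (25.9%) in the IL34LacZ/LacZ library and 29 of 110 (26.4%) in the IL34LacZ/+ library. Scrublet, a doublet caller, marked 11 IL34LacZ/LacZ and 5 IL34LacZ/+ ependymal cells, which were kept, and 6.33% of all IL34LacZ/LacZ and 6.25% of all IL34LacZ/+ barcodes. Without the marked cells 14 genes were called higher, 12 of them among the 22 above, and 9 lower, 6 of them among the 7 above. Without cells that held over 10 UMIs of other types, 8 were called higher, 2 of them among the 22, and 5 lower, 4 of them among the 7.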

How the data were processed

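Single-cell RNA was measured in 2 libraries, 1 per genotype, with no replicates. Per the file headers, the UMI counts deposited by the authors came from Cell Ranger 5.0.0, against GRCm38.p6 (mm10) per the submitters' processing notes; both matrices list barcodes from 500 UMIs upward and 25827 genes. Barcodes were kept as cells from 1000 UMIs and 500 genes up, if no more than 10% of the UMIs were mitochondrial. Counts were summed over the cells of a class in each library and divided by their total. Ratios have exact conditional binomial 95% intervals and CPM exact Poisson ones, which cover counting error only. A gene was measured with 100 UMIs over both libraries, and called at 2-fold with an interval that leaves 1 out. No test between genotypes was possible. Choroid plexus cells had at least 5 UMIs of Kcnj13, Folr1, Prlr and Kcne2, fewer than 5 of the ependymal genes and no Ptprc. Macrophage-marked cells had Ptprc and at least 5 UMIs of Csf1r, Cx3cr1, P2ry12, Mrc1 and Pf4. Doublets were marked with Scrublet (scanpy 1.11.5) and kept.

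The ependymal rule and the gene lists were chosen with earlier results of these data known. Genes named are the rule and sort genes, the 15 most abundant (mitochondrial and ribosomal protein genes left out), the 25 of highest fold over other cells with at least 50 UMIs in each library, up to 10 called in each direction with at most 10% of UMIs in 1 cell, the 4 most abundant and every called gene of each list, the 10 of highest Fano factor, Dynlrb1, Il34, Csf1 and Csf1r. List members whose interval left 1, early or defining genes of a list, Zp3, Acta2, Car9 and the pairs of genes set against each other were named after their values were seen. Some genes that these rules name are not reported here. The ratio and call functions were run on simulated counts with known folds, which held counting error only and no variation between cells or libraries. Alternatives used numpy 2.4.6, scipy 1.17.1 and, for TMM scaling, edgeR 4.0.16.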

Additional observations from a re-analysis of the deposited data

Results flagged for a closer look

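Cells outside the ependymal rule carried ciliary transcripts and were not counted as ependymal. The first group below is part of all other cells in the folds above, and the second was in no class of the main comparisons. The first such group had at least 20 UMIs of the 4 ependymal genes and no Ptprc but more than 3 UMIs of the choroid genes, 76 cells in the IL34LacZ/LacZ library and 28 cells in the IL34LacZ/+ library. Dnah5, an outer-arm dynein heavy chain, stood at 362 CPM in the 76 IL34LacZ/LacZ cells and 397 CPM in the 28 IL34LacZ/+ cells, and Sntn at 419 CPM (IL34LacZ/LacZ) and 324 CPM (IL34LacZ/+). The second group met the rule apart from a mitochondrial share above 10%, 131 cells in the IL34LacZ/LacZ library and 80 cells in the IL34LacZ/+ library. Their median mitochondrial share was 13.7% (IL34LacZ/LacZ) and 13.1% (IL34LacZ/+), and their median depth 4736 UMIs (IL34LacZ/LacZ) and 3853.5 UMIs (IL34LacZ/+). In these cells Dnah5 stood at 427 CPM (IL34LacZ/LacZ) and 403 CPM (IL34LacZ/+). No group of 4 or more samples exists, so no sample was compared with its own group.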

How the results depend on the processing

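No paired analysis was possible because there is 1 library per genotype, and for the same reason no library could be left out. The main counts were 22 genes higher and 7 lower in IL34LacZ/LacZ ependymal cells, with 2.05% (IL34LacZ/LacZ) and 1.25% (IL34LacZ/+) of cells ependymal. In the alternatives that moved a count by over 1.5 times, higher and lower calls were 41 and 8 at a marker sum of at least 3, 8 and 1 at a choroid sum of 0, 14 and 0 at a mitochondrial share of at most 5%, 14 and 9 without doublets, 8 and 5 without cells that held over 10 UMIs of other types, 25 and 11 with equal weight per cell, 5 and 2 after thinning to 2000 UMIs, 3 and 2 without genes at 20% or more of their level in macrophage-marked cells, 89 and 25 at 50 UMIs per gene, 251 and 124 with no minimum, 22 and 4 without the IL34LacZ/+ cell rich in haemoglobin, and 8 and 1 without genes with over 10% of UMIs in 1 cell. Of the higher calls, 4 of 8 at a choroid sum of 0, 1 of 14 at a mitochondrial share of at most 5%, 2 of 8 without cells of other types and 1 of 5 after thinning were among the main 22. The ependymal share moved to 0.908% (IL34LacZ/LacZ) and 0.465% (IL34LacZ/+) at a choroid sum of 0, 2.71% (IL34LacZ/LacZ) and 1.51% (IL34LacZ/+) at most 10, 1.27% (IL34LacZ/LacZ) and 0.556% (IL34LacZ/+) at a mitochondrial share of at most 5%, 3.1% (IL34LacZ/LacZ) and 1.78% (IL34LacZ/+) at 3000 UMIs, 1.52% (IL34LacZ/LacZ) and 0.919% (IL34LacZ/+) without cells of other types, 1.76% (IL34LacZ/LacZ) and 0.897% (IL34LacZ/+) at a marker sum of 20, and 2.72% (IL34LacZ/LacZ) and 1.51% (IL34LacZ/+) without Folr1 in the choroid sum. Called log2 ratios that turned were Hbb-bs (0.40), Hba-a1 (0.91), Hbb-bt (0.88) and Ptprb (0.10) at a choroid sum of 0; Gfap (0.41), Apod (-0.83), Hbb-bs (0.31), Hba-a1 (2.63), Hba-a2 (1.56), Hbb-bt (0.49), Fxyd5 (-0.53), Ptprb (0.49) and Slc26a2 (-0.61) at a mitochondrial share of at most 5%; Igfbp7 (-0.54) without cells of other types; Hbb-bs (0.36), Hba-a1 (0.92) and Hba-a2 (0.78) without the haemoglobin-rich cell; and Vtn (-0.0065) without Folr1; the cause was not tested beyond the cells left out. The median log2 ratio kept its sign in every alternative that gave one for radial spoke genes (-0.22 to -0.02), intraflagellar transport genes (-0.22 to -0.02) and immediate-early genes (0.17 to 0.51). It also kept its sign for multiciliation factors, here with Foxj1 (-0.22 to -0.02), planar polarity genes (0.007 to 0.12) and secreted genes (0.06 to 0.32). For axonemal dyneins, here with Dynlrb2, it lay between -0.10 and 0.09. The Folr1, haemoglobin, marker-sum-20 and 1-cell alternatives were chosen after seeing the data. Of 3422 gene-by-setting ratios, 3050 stayed within the main interval. That count includes settings that only left genes out, whose ratios equal the main ones by construction. It also includes scalings that multiply every ratio by the same factor. Genes under 100 UMIs over both libraries were not judged at this depth.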

Other observations

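Slc2a1 was higher, and Ldha and Cox4i1 lower, in ependymal cells than in choroid plexus cells; these genes were chosen after their values were seen. Slc2a1, the glucose transporter GLUT1, stood at 499 CPM in IL34LacZ/LacZ and 526 CPM in IL34LacZ/+ ependymal cells, and at 50.3 CPM (IL34LacZ/LacZ) and 42.5 CPM (IL34LacZ/+) in choroid plexus cells. Ldha, which encodes a lactate dehydrogenase subunit, was at 67.1 CPM in IL34LacZ/LacZ and 66.6 CPM in IL34LacZ/+ ependymal cells, against 244 CPM (IL34LacZ/LacZ) and 257 CPM (IL34LacZ/+) in choroid plexus cells. The respiratory chain subunit Cox4i1 gave 1025 CPM in IL34LacZ/LacZ and 1042 CPM in IL34LacZ/+ ependymal cells, against 2703 CPM (IL34LacZ/LacZ) and 3075 CPM (IL34LacZ/+) in choroid plexus cells. None of the 28 respiratory chain genes stood 4-fold above choroid plexus cells or above all other cells in both libraries, against 24% (choroid plexus) and 16.2% (all other cells) of all measured genes. Sparcl1, a matricellular glycoprotein of astrocytes, gave 1156 CPM in IL34LacZ/LacZ and 1151 CPM in IL34LacZ/+ ependymal cells, against 36.9 CPM in choroid plexus cells of either library.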
